A study of Drosophila melanogaster with 3 samples.

Results

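The genes encoding the subunits of the proteasome were examined as targets of Su(H) in Drosophila melanogaster embryos. Members were the protein-coding genes whose symbol starts with Prosalpha, Prosbeta, Rpn or Rpt followed by a digit, which gave 48 of the 13945 protein-coding genes annotated on the 6 chromosome arms of the dm6 assembly. The 32 main subunit genes were 7 of the alpha ring, 7 of the beta ring, 6 ATPases of the base, 4 other base subunits and 8 lid subunits. The other 16 were paralogs with symbols ending in T, T1, T2, R, R1 or R2. Su(H) (Suppressor of Hairless) binds DNA on behalf of the Notch pathway. It had been mapped by chromatin immunoprecipitation and sequencing in 3 biological replicates of 1 group, whole embryos of both sexes pooled and collected at 0 to 24 h of age. The line carried a transgene for Su(H) joined at its C-terminus to green fluorescent protein (GFP), and GFP was the target of the antibody. There was no second genotype, treatment or stage, and no control library was analysed here. In whole embryos, binding in few cells and weak binding in many cells cannot be told apart.

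The proteasome is the protease complex that degrades proteins marked with ubiquitin. Its 20S core is a barrel of alpha and beta rings with the protease sites on the inside, and its 19S regulatory particle binds ubiquitin chains, removes them and unfolds the substrate. The base of the 19S particle is built from the Rpt ATPases and several Rpn scaffold and receptor subunits, and the lid from the remaining Rpn subunits. Main subunits are needed in every cell. Several fly subunits have a second gene copy, many of them known for expression in the testis, and these copies made up the 16 paralogs.

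Su(H)-GFP peaks of the authors' thresholded list lay at the promoters of some main subunit genes and of no paralog. A gene was counted when a summit, the highest point of a peak, lay within 500 bp of one of its transcription starts. The thresholded list was made with a test of reproducibility and equals the 3833 strongest peaks of the larger pooled list. A listed peak can therefore be weak in 1 replicate. The list had a summit at 8 of 32 main subunit genes (25%), against a background of 19.4% of all protein-coding genes. The share of the main subunits was therefore close to that of any gene. Among the paralogs the count was 0 of 16. Within the main subunits, 7 of the 18 genes of the 19S particle had such a summit (38.9%), namely Rpn2, Rpn3, Rpn5, Rpn6, Rpn13, Rpt2 and Rpt5. Of the 14 genes of the 20S core only Prosbeta1 did (7.14%). With 1 group of embryos and genes as the only units, none of these differences was tested.

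The larger pooled list separated the main subunits from the paralogs more widely. It holds 30000 peaks and includes background by design, and 54.4% of all protein-coding genes had a summit of it at a start. The count was 30 of 32 for main subunits (93.8%), made up of all 18 of the 19S genes and 12 of the 14 of the 20S genes (85.7%). It was 1 of 16 for paralogs, the exception being Prosbeta2R2. In the plot of shares by list, the 19S genes stand above all protein-coding genes in each of the 3 columns, the 20S genes fall below them in the thresholded list, and the paralogs stay below them throughout.

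**Figure D1:**
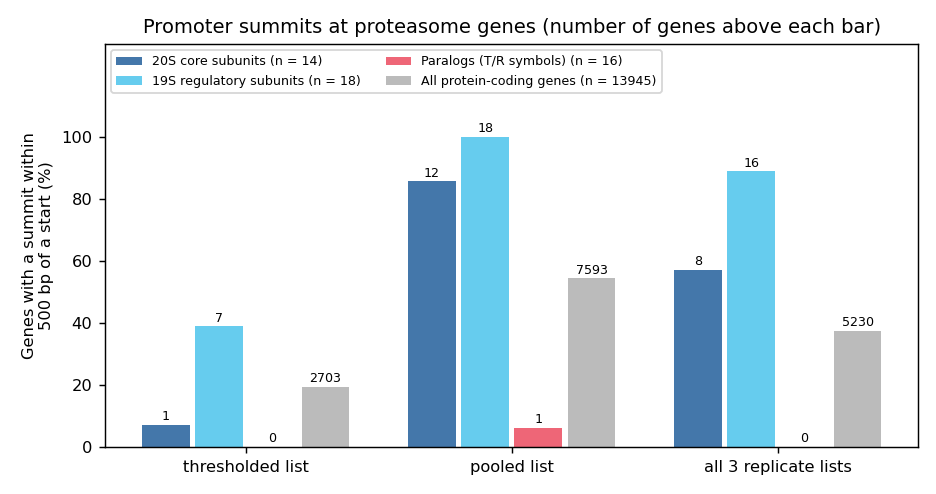
Share of genes (percent) with a summit within 500 bp of a start in the thresholded list, the pooled list and all 3 replicate lists, for 20S genes, 19S genes, paralogs and all protein-coding genes, with the number of genes above each bar. The 19S genes stand at 38.9%, 100% and 88.9% and the 20S genes at 7.14%, 85.7% and 57.1%.

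In the lists of the single libraries, also of 30000 peaks each, main subunits had a summit in 28 of 32 genes in replicate 1, where the background was 51.4%. The count was 25 in replicate 2, with a background of 53.4%, and 28 in replicate 3, with a background of 54.6%. All 3 lists had a summit at 24 main subunit genes (75%), against 37.5% of all genes. The summits of the 3 lists need not coincide in this count. At Prosalpha6 the strongest lay at 8, -493 and 207 bp from the start in replicates 1, 2 and 3. With a window of 200 bp in place of 500 bp the counts fell to 13 main subunits (40.6%), against 24% of all genes, and 0 paralogs. By particle, the wider window gave 16 of 18 genes of the 19S (88.9%) and 8 of 14 of the 20S (57.1%). The narrower one gave 11 (61.1%) and 2 (14.3%). The share of the 20S thus lay above that of all genes with the wider window and below it with the narrower one. Paralogs with a summit numbered 1, 2 and 1 in replicates 1, 2 and 3, and none had one in all 3 lists. No list held a summit at 13 of the 16 paralogs (81.2%), at 1 of the 32 main subunits (3.12%) and at 30.8% of all genes. With the window of 500 bp, each library on its own thus placed main subunits above the background and paralogs below it.

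The strongest 3833 peaks of each library gave smaller counts. Replicate 1 had 10 main subunit genes at a background of 19.8%, replicate 2 had 7 at 18.4%, and replicate 3 had 9 at 19.1%. The 5 genes in all 3 of these sets were Prosbeta1, Rpn3, Rpn5, Rpn6 and Rpt5 (15.6% of main subunits, background 12.7%). No paralog was in any of the 3 sets. As with the thresholded list, these shares of main subunits were near the background or moderately above it, so the excess over other genes sat mostly in peaks of low and middle strength.

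The signal, the authors' own value for the height of a peak, set the members apart by particle. Its scaling is not stated, and it is used here to rank and describe peaks within 1 list. The median signal of the strongest promoter summit in the pooled list was 46.7 over the 12 genes of the 20S with a summit. It was 89.7 over the 18 genes of the 19S and 78.1 over the 7593 protein-coding genes with a summit. The summits of the core thus ranked low in the list, at a median rank of 14149, and those of the regulatory particle higher, at 4928. In the plot of pooled signal by gene, Rpn5 stands highest and 11 of the 12 core genes with a summit lie below the lowest thresholded signal of 106. That count restates their absence from the thresholded list, which is a cut on the same signal.

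**Figure D2:**
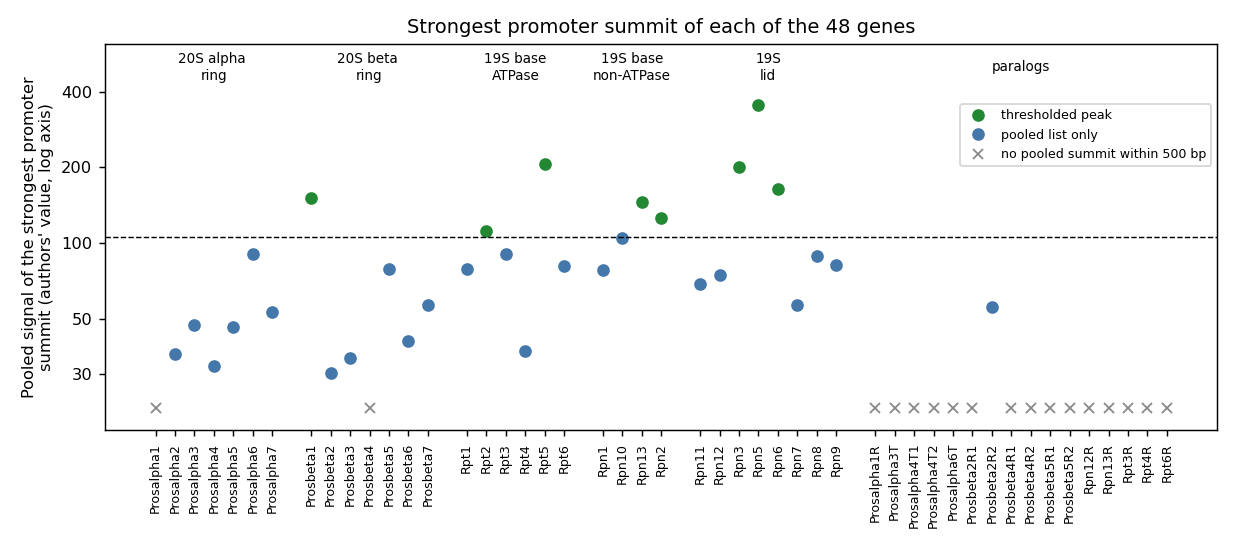
Pooled signal of the strongest summit within 500 bp of a start (authors' value, log axis) for each of the 48 genes, ordered by role. Green points are thresholded peaks, blue points are in the pooled list only, crosses mark genes with no summit, and the dashed line is the lowest thresholded signal of 106.

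The lid gene Rpn5 had the strongest peak of the family. Rpn5 encodes a scaffold subunit of the lid. The peak lay at 3R 5789061 to 5789476 with a pooled signal of 354, rank 461 of 30000. Its signal was 121, 112 and 126 in replicates 1, 2 and 3, a mean of 120 ± 7.24 (SD, n = 3), with ranks of 440, 494 and 418. The 3 libraries gave nearly the same value. The summit lay 224 bp upstream of the start of Rpn5 and inside Hat1, which encodes a histone acetyltransferase and is transcribed the other way. A start of Hat1 lay 115 bp from the summit, so Hat1 was the nearer gene.

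The other lid genes with a thresholded peak were Rpn3, a scaffold subunit, and Rpn6, which clamps the lid to the core. Rpn3 had its peak at 2L 19051578 to 19051993, with a pooled signal of 201 at rank 1297 and a summit 4 bp upstream of a start. Its replicate signals were 78.6, 48.5 and 66.5 (mean 64.5 ± 15.1, SD, n = 3), lowest in replicate 2. Replicate 1 had a further summit of signal 85.6, at -133 bp from the start. For Rpn6 the peak lay at 2R 14752155 to 14752570, with a pooled signal of 164 at rank 1861 and a summit 92 bp upstream. Its signals were 69.4, 48.8 and 46.3 (mean 54.8 ± 12.7, SD, n = 3), highest in replicate 1. The ranges of Rpn3 and Rpn6 over the replicates overlapped, and the lowest replicate of Rpn5 lay above the highest of both.

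The other 5 lid genes had summits in the pooled list only. Rpn8, a scaffold partner of the lid deubiquitinase, had a signal of 89.1, and the deubiquitinase gene Rpn11 itself had 69. Rpn9 had a signal of 81.7, Rpn12 of 74.8 and Rpn7 of 56.7. The summit of Rpn8 lay 370 bp upstream of its internal start and 45 bp from a start of Slik, a kinase gene. Rpn9 had summits in replicates 1 and 2, at signals of 43.6 and 41.6, and none in replicate 3.

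Among the base ATPases, which form the unfolding motor, Rpt5 and Rpt2 had thresholded peaks. Rpt5 had its peak at 3R 23752658 to 23753073, with a pooled signal of 206 at rank 1240 and a summit 10 bp upstream of its start. Its replicate signals were 65.6, 68.5 and 73.2 (mean 69.1 ± 3.86, SD, n = 3). The Rpt2 peak lay at 3R 23931391 to 23931806, with a pooled signal of 112 at rank 3514 and a summit 41 bp upstream. Its signals were 41.9, 36.3 and 34 (mean 37.4 ± 4.09, SD, n = 3). Both genes varied little between libraries, and all 3 values of Rpt5 lay above those of Rpt2. Rpt3 had a pooled signal of 90.3, Rpt6 of 81.3 and Rpt1 of 79, while Rpt4, at 37.1, was the weakest of the 6 and had a summit in replicate 3 alone.

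Of the other base subunits, Rpn13, a ubiquitin receptor, and Rpn2, the large scaffold that holds it, had thresholded peaks. The Rpn13 peak lay at 2R 13960346 to 13960761, with a pooled signal of 146 at rank 2251 and a summit 150 bp upstream. Its replicate signals were 43.4, 34.1 and 65.4 (mean 47.6 ± 16.1, SD, n = 3). The Rpn2 peak lay at 3R 29153138 to 29153553, with a pooled signal of 126 at rank 2863 and a summit 178 bp upstream. Its signals were 35.9, 37.4 and 61 (mean 44.7 ± 14.1, SD, n = 3). In both genes replicate 3 was the highest library. Rpn10, also a ubiquitin receptor, lay just outside the thresholded list, with a pooled signal of 105 at rank 3861. Its replicate signals were 28.7, 36 and 28.6 (mean 31.1 ± 4.26, SD, n = 3). The scaffold gene Rpn1 had a pooled signal of 78.4. Just inside and just outside the threshold, then, stood Rpt2 at 112 and Rpn10 at 105.

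In the beta ring, Prosbeta1 encodes one of the catalytic subunits. Its peak lay at 2R 16014667 to 16015082, with a pooled signal of 151 at rank 2115 and a summit 88 bp upstream. The replicate signals were 58.9, 39.7 and 42.3 (mean 47 ± 10.4, SD, n = 3), highest in replicate 1. The other catalytic subunits differed, with a pooled signal of 78.9 at Prosbeta5 and of 30.3 at Prosbeta2, close to the lowest pooled signal of 30. The structural subunits Prosbeta3, Prosbeta6 and Prosbeta7 had pooled signals of 35, 40.7 and 56.8. Prosbeta4 had no pooled summit and 1 summit among the replicate lists, in replicate 1 at a signal of 24.8.

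No gene of the alpha ring, which gates the entry to the barrel, had a thresholded summit. Prosalpha6 came nearest, with a pooled signal of 90.3 and a summit 9 bp downstream of its start. The matching summits had signals of 51.8 in replicate 1 and 26 in replicate 3, and replicate 2 had no summit within 200 bp of the pooled one. Prosalpha7 had a pooled signal of 53.2, Prosalpha3 of 47.1, Prosalpha5 of 46.4, Prosalpha2 of 36.1 and Prosalpha4 of 32.4. The pooled summits of Prosalpha4 and Prosalpha5 lay 440 and 445 bp downstream of the nearest start, unlike the thresholded peaks. The strongest Prosalpha5 summits of replicates 1 and 3 lay close to a start, at -18 and -29 bp with signals of 23.3 and 22.1. That of replicate 2 lay at 382 bp, with a signal of 15. For Prosalpha4 they lay at 236, 448 and -333 bp in replicates 1, 2 and 3. Prosalpha1 had no summit in any list, but all 966 of the 36-base words within 500 bp of its start occurred elsewhere in the genome (100%). The same held for its paralog Prosalpha1R, so the lack of a peak at these 2 genes cannot be read. Of the other main subunits, 28 had no repeated word there, and Rpn3 (9.73%), Prosalpha3 (6.42%) and Rpt6 (2.28%) had few.

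**Figure D3:**
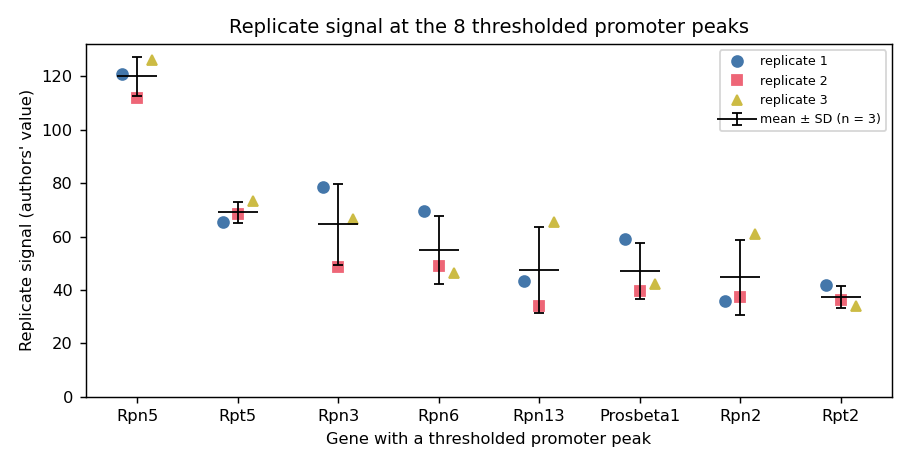
Signal of the 8 thresholded promoter peaks in the 3 replicates (authors' value, linear axis from 0), with 1 point per replicate and black bars for the mean ± SD (n = 3). Rpn5 lies above the other 7 genes in every replicate, between 112 and 126.

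Across the 8 genes, replicate 2 had the lowest median signal. The median was 62.2 in replicate 1, 44.1 in replicate 2 and 63.2 in replicate 3. Whole lists differed too, with a median of 20.3, 16.8 and 17.7 over all peaks of replicates 1, 2 and 3. Library depth was unknown, and its part in these differences was not tested. Against all genes the family was not exceptional in strength, with a median replicate mean of 51.2 for the 8 genes and 57.2 for all genes with a thresholded promoter peak matched in the 3 replicates.

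All 8 thresholded peaks were shared with a neighbouring gene on the opposite strand, whose start also lay within 500 bp of the summit. Of the 2703 genes with a thresholded promoter summit, 54.8% shared it with another protein-coding gene. All 8 summits lay upstream of the nearest start of the subunit gene, as did 81.9% of those of all genes. The neighbour was nearer to the summit in 5 of the 8 cases. Over all genes, another gene was nearer for 711 of the 1482 that shared their summit. Rrp42, an RNA exosome gene, lay 33 bp from the summit of Prosbeta1, against 88 bp for the subunit. Slbp, for the protein that binds the histone mRNA stem-loop, lay 80 bp away against 178 bp for Rpn2. CtsL1, for a lysosomal cathepsin, lay 121 bp away against 150 bp for Rpn13, and CG13599 40 bp away against 41 bp for Rpt2. With Hat1 these make the 5. Rpn3, Rpn6 and Rpt5 were nearer to their summits than were l(2)37Bb (174 bp), ave (158 bp) and RanBP3 (32 bp). Counting each summit for its nearest gene alone left these 3 (9.38% of main subunits), below the 2035 of all genes (14.6%) as a share. Limiting the count to summits with no other protein-coding start within 500 bp left 0 of the 8 and 1241 of the 2703. Which gene of a pair such a peak acts on cannot be told apart from these lists.

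**Figure D4:**
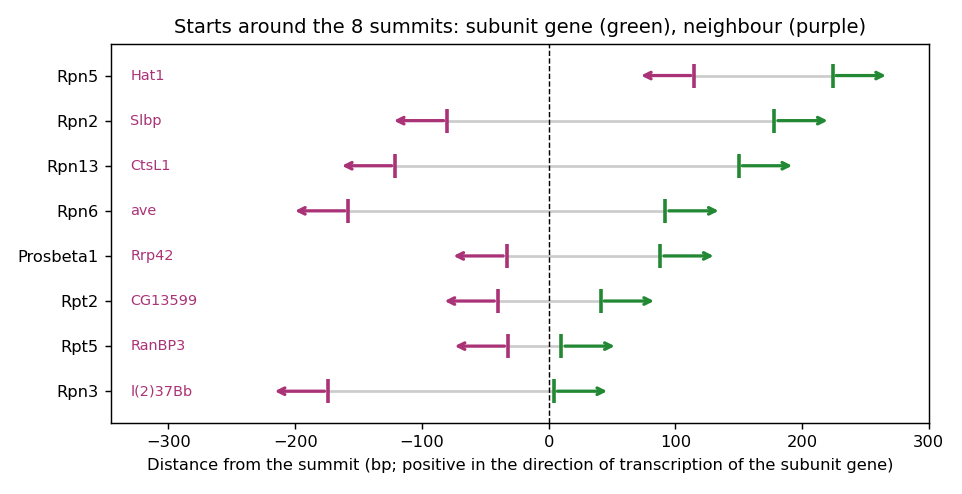
Starts of the 8 subunit genes and of the genes sharing their peaks, as distance in bp from the summit, oriented so that the subunit gene is transcribed to the right. Every subunit start lies downstream of the summit, from 4 bp for Rpn3 to 224 bp for Rpn5, and the neighbours lie 32 to 174 bp away, measured to their nearest start.

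The sharing follows an arrangement that is common in the family. Of the main subunit genes, 18 of 32 had the most upstream start of an opposite-strand gene within 500 bp upstream (56.2%), as did 2 of 16 paralogs (12.5%) and 25% of all protein-coding genes. Over all genes, 36.6% of such head-to-head genes had a thresholded summit, and 13.7% of other genes. Among main subunits the counts were 7 of 18 head-to-head genes (38.9%) and 1 of 14 others (7.14%). By particle, the head-to-head counts were 6 of 9 genes of the 19S (66.7%) and 1 of 9 of the 20S (11.1%). With both particles counted together, the main subunits were thus near, or below, the background of each class. The one gene in the second class was Rpn6, whose summit lay near the downstream one of its 2 starts, with ave starting between them. Counting the most upstream starts alone left 7 main subunits with a thresholded summit (21.9%), against 17.4% of all genes.

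Bases between the starts are shown for the 5 genes with a thresholded peak on arms 2L and 3R, to let the motifs be seen near the peaks. The stretch holds the summit except for Rpn5, whose summit lies outside it, at 3R 5789269 and inside Hat1. Each stretch is on the strand of the subunit gene, ends 1 base before its start, and holds no annotated exon. The coordinates are chr3R:29153267-29153523 for Rpn2, chr2L:19051613-19051789 for Rpn3, chr3R:5789385-5789492 for Rpn5 and chr3R:23752835-23752875 for Rpt5, all on the plus strand, and chr3R:23931559-23931638 on the minus strand for Rpt2 (dm6, RefSeq sequence). Capitals mark the core ATCGAT of the DNA replication-related element (DRE), the word bound by the factor Dref.
Rpn5: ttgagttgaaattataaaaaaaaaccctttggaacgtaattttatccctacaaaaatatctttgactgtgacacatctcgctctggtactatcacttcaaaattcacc
Rpn3: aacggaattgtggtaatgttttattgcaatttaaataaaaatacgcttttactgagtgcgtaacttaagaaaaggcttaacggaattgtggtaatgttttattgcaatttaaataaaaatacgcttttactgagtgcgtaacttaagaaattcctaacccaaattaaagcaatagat
Rpt5: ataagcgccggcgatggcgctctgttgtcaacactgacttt
Rpn2: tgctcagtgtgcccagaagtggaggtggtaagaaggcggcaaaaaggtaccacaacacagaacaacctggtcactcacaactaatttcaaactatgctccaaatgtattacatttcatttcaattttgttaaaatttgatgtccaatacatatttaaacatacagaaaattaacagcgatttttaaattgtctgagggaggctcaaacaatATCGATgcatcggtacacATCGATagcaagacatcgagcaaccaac
Rpt2: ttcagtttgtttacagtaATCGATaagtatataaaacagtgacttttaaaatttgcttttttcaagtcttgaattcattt
A full DRE, TATCGATA, lay within 100 bp of the summits of Rpn3 and Rpt5. The one at Rpn3 lies outside the stretch shown, and the one at Rpt5 crosses its edge. It is given with 11 bases to each side, with the DRE in capitals. The coordinates are chr2L:19051855-19051884 for Rpn3 and chr3R:23752819-23752848 for Rpt5, on the plus strand. Unlike the stretches above, both of these pieces overlap an annotated exon.
Rpn3 site: accgtaaaacgTATCGATAaattgaaacgt
Rpt5 site: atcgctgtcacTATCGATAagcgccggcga
Rpn2 carried the core at 2 places and Rpt2 at 1. Those of Rpn2 lay at -46 and -28 bp from the start, and none was within 100 bp of its summit. The stretches of Rpn3, Rpn5 and Rpt5 held neither the core nor a Su(H) word.

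The DRE was present at a larger share of main subunit promoters than of paralogs, partner genes or all genes, which is a description without a test. Its search covered both strands, and ATCGAT lies inside every TATCGATA. In the promoter window, from 250 bp before to 50 bp after the most upstream start, 12 of 32 main subunit genes held a DRE (37.5%), 0 of 16 paralogs and 9.36% of all genes. The 12 genes were Prosalpha3, Prosalpha5, Prosalpha6, Prosbeta1, Prosbeta2, Prosbeta6, Rpn3, Rpn7, Rpn9, Rpn12, Rpn13 and Rpt5. They comprised 6 of 14 genes of the core (42.9%) and 6 of 18 of the regulatory particle (33.3%). The core word alone was present at 17 main subunits (53.1%), at 1 paralog, Prosbeta2R1, and at 23.3% of all genes. Of the partner genes described further on, 17.4% held the DRE and 43.5% the core word.

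The DRE was also found at the summits. Within 100 bp of a thresholded summit it lay at 4 of the 8 main subunit genes, namely Prosbeta1, Rpn3, Rpn13 and Rpt5. At Rpn3 this was a different site from the DRE counted in the promoter window, which lay at -197 bp from the start. Over all genes, 9.9% of the 1949 thresholded promoter summits had a DRE so close, and 5.37% of all thresholded peaks. The core word lay at 6 of the 8, adding Rpn6 and Rpt2, against 20.7% of those 1949 summits. A DRE in the promoter did not go with a strong peak in every gene, since 8 of the 12 genes with one had no thresholded summit, among them Prosbeta2 with a pooled signal of 30.3. Conversely Rpn5, with the strongest peak, had neither word.

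The consensus of Su(H) was searched as CGTGGGAA, CGTGAGAA, TGTGGGAA and TGTGAGAA on both strands. None of the 32 main subunit promoters held one, against 3.18% of all genes, and none lay within 100 bp of the 8 thresholded summits, against 3.44% of the 1949 promoter summits. At that background frequency few matches would be found among 32 genes. It was present at 2 of the 16 paralogs (12.5%), Prosalpha3T, 61 bp before the start, and Rpt6R, 237 bp before it. Neither paralog had a summit in any list. The 150 bases before the start of Prosalpha3T, chr3R:31123416-31123565 on the minus strand, are given with the match in capitals, as a promoter with the consensus and no peak.
Prosalpha3T: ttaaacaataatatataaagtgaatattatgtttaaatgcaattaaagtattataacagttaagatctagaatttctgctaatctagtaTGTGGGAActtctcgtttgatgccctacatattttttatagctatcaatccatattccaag

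Other promoter words were searched on both strands in the same window. The core of Motif 1, GGTCACACT, a word of housekeeping promoters, was at 5 main subunits (15.6%), at 0 paralogs and at 6.05% of all genes. The antioxidant response element TGACNNNGC, through which cnc acts, was at 5 main subunits (15.6%), at 1 paralog (6.25%) and at 8.63% of all genes. Prosalpha2, Prosbeta3, Rpn1 and Rpn7 held both, with overlapping matches at Prosbeta3 and Rpn1. None of these 4 had a thresholded summit, and neither word lay within 100 bp of the 8 summits. The GAGA repeat, searched as GAGAG, went the other way, with 3 main subunits (9.38%), 6 paralogs (37.5%) and 29.7% of all genes. The TATA word TATAAA was at 13 main subunits (40.6%), 5 paralogs (31.2%) and 45.8% of all genes. The E-box word CACGTG was at none of the 48 genes and at 4.2% of all genes, and CAGCTG was at 1 main subunit, Rpt3, at 1 paralog, Rpt3R, and at 17.7% of all genes.

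**Figure D5:**
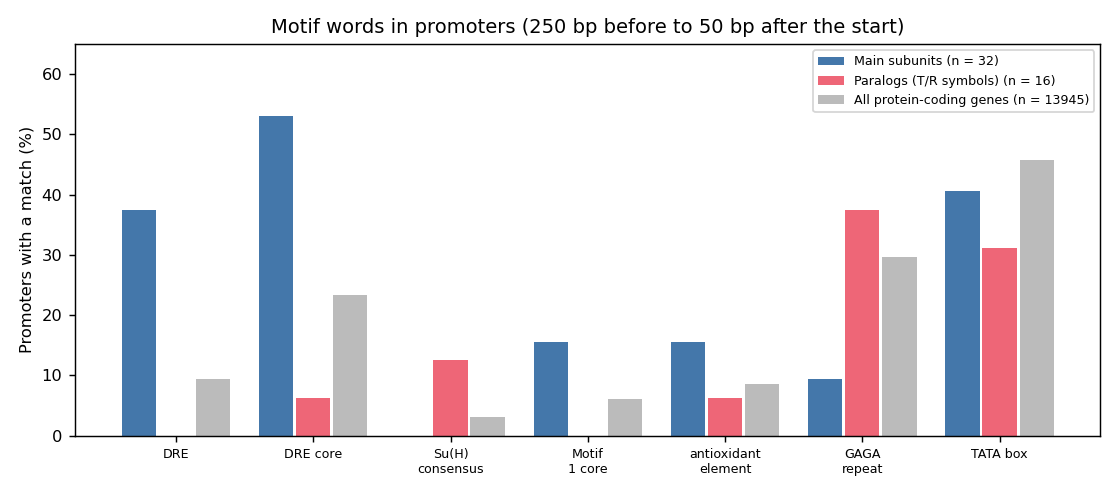
Share of promoters (percent) with each word, from 250 bp before to 50 bp after the most upstream start, for main subunits, paralogs and all protein-coding genes. The DRE stands at 37.5% of main subunits, 0% of paralogs and 9.36% of all genes.

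Paired with their main subunit genes, the paralogs gave 16 pairs. In 12 pairs the main gene had a pooled summit and the paralog none, in 1 both had one, in 3 neither did, and in 0 the paralog did alone. The 3 pairs without any were Prosalpha1R with Prosalpha1, and Prosbeta4R1 and Prosbeta4R2 with Prosbeta4. The widest gap was at Rpn13, with a pooled signal of 146, and Rpn13R, with no summit. In the one pair with both, the copy was the stronger, with a pooled signal of 55.8 at Prosbeta2R2 and 30.3 at Prosbeta2. The Prosbeta2R2 summit lay 91 bp downstream of its start and 220 bp from CG1116, and had signals of 16.4 and 29.8 in replicates 2 and 3 and no match in replicate 1. Prosalpha4T1 had a summit in replicate 1, at a signal of 17.1, and Rpn12R in replicate 2, at 15.5, both below the median signal of their list.

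The paralogs also tended to lie farther from a thresholded peak. Their nearest thresholded summit lay 3390 to 72959 bp from a start, with a median of 33146 bp, and none was within 2000 bp. The median over all 11242 protein-coding genes without a thresholded promoter summit was 11725 bp, and 8.83% were within 2000 bp. For the 24 main subunits without a thresholded promoter summit, it lay 1081 to 20311 bp away, with a median of 7704 bp, and 3 were within 2000 bp (12.5%), namely Prosalpha3, Prosbeta6 and Rpn11. No 36-base word within 500 bp of the start was repeated at 15 of the 16 paralogs, the exception being Prosalpha1R. The length of the reads is not given, and the part of repeats in the missing summits was not tested.

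Genes that assemble, regulate or feed the proteasome were taken as a list of 25 symbols, of which 23 were in the annotation. The list was chosen with earlier results of these data known, so its shares are a description only. A single start was annotated for 12 of the 23 genes, against 10246 of the 13945 protein-coding genes. The part of the number of starts in these shares was not tested. A thresholded promoter summit was present at 10 of these 23 (43.5%, background 19.4%) and a pooled one at 20 (87%, background 54.4%). The 10 were Dref, Uch-L5, cnc, Ubi-p63E, Ufd4, Ubi-p5E, CG9588, p47, TER94 and Pomp. Of the 10, 3 shared the peak with another gene (30%), against all 8 of the subunit genes.

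The strongest of these was Dref, the gene of the DRE-binding factor, with a pooled signal of 384 at rank 381. Its signals were 129, 126 and 142 (mean 132 ± 8.8, SD, n = 3), alike in the 3 libraries. RpL13, a ribosomal protein gene, lay 92 bp from that summit. Uch-L5, the deubiquitinase that docks on Rpn13, had a pooled signal of 237 and replicate signals of 59.4, 72.5 and 97.1 (mean 76.3 ± 19.1, SD, n = 3). This peak was shared with Jarid2, 57 bp from the summit. The cnc gene, for the fly relative of the factor that raises proteasome gene expression under stress in mammals, had a pooled signal of 177 and signals of 64.1, 48.3 and 64.2 (mean 58.9 ± 9.18, SD, n = 3). Its summit lay 311 bp downstream of a start.

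Genes that supply ubiquitin differed among themselves. The polyubiquitin genes Ubi-p63E and Ubi-p5E had thresholded peaks with pooled signals of 167 and 138. The ubiquitin fusion genes RpS27A and RpL40 had pooled signals of 97.3 and 37, outside the thresholded list, as was Uba1, for the ubiquitin-activating enzyme, at 66.8. TER94, the segregase that extracts ubiquitinated proteins, and its cofactor p47 had pooled signals of 124 and 128, whereas the cofactor Npl4 had 58.8. Pomp, the chaperone of core assembly, had a thresholded peak of pooled signal 120. Its strongest summits in replicates 1, 2 and 3 had signals of 57, 33.7 and 43.2, at positions -113, -176 and -131 bp from the start. The replicate 2 summit nearest to the pooled one was a weaker one, with a signal of 11.3. CG9588 had a pooled signal of 133 and signals of 17.6, 47.7 and 60.9 in replicates 1, 2 and 3 (mean 42.1 ± 22.2, SD, n = 3). REG, maf-S and Usp14 had no pooled summit at a start.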

How the data were processed

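Peak lists of 3 biological replicates, numbered as in the labels, were used in their dm6 version. Per the deposited file lists, each replicate list came from 1 library and a control, the pooled list from the 3 libraries and a control, and the thresholded list from these by irreproducible discovery rate, a test of rank agreement between replicates. The sources used here do not name the aligner, peak caller or threshold. Chromatin was sonicated to 200 to 800 bp per the labels, and 1 label field names Su(H), not GFP, as the antibody. The deposited signal value is the authors' and its scaling is not stated. The deposited −log10 q value was not used for ranking. The thresholded list equals the top 3833 peaks of the pooled list by signal. Read depth is unknown, so no counting interval is given.

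Starts came from Ensembl release 115 (BDGP 6.54) and sequence from RefSeq of the same assembly. Replicate peaks were matched to a pooled peak by summits no more than 200 bp apart. The mean ± SD is over the 3 replicate lists. The nearest such summit was taken, and the strongest summit of a replicate list at the gene is given where stated. Repeats were 36-base words found elsewhere on either strand, and read length is not given. Scripts used Python 3.11.15, pandas 2.3.3 and numpy 2.4.6 and were tested on simulated data. Members, roles, partner genes and words were chosen with earlier results of these data known. All main subunits were named, with values in full for those with a thresholded promoter summit. Paralogs were counted as a set and only some were named. Partners with a thresholded promoter summit were all named, with replicate values for some. Partners without such a summit were named after their values were seen. Alternatives were other windows, lists, matching distances and replicates left out.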

Additional observations from a re-analysis of the deposited data

How the results depend on the processing

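Of 61 alternative values, 48 kept within the limits set and 13 did not. The limit was a factor of 1.5 for counts and the SD over the replicate medians, 10.8, for the median signal. Paralog counts of 0 under a narrower rule were fixed in advance and are among the 48. Among the 1000 strongest peaks, the main subunit genes with a promoter summit numbered 1 in place of 8, the partners 2 in place of 10, and all genes 835 (5.99%). In the pooled list they were 30, 20 and 7593, and the paralogs 1. Giving each summit to its nearest gene alone left 3 main subunits (9.38%), below the 14.6% of all genes. Keeping only summits with no other protein-coding start within 500 bp, an alternative chosen after seeing the data, left 0 main subunits and 1241 of all genes (8.9%). The median signal of the 8 genes was 157 when the pooled signal was used. Leaving out a replicate gave 49.5 to 56.1. Main subunits in all replicate lists were 13 with a window of 200 bp, where all genes stood at 24%, and 24 to 25 without 1 replicate. Paralogs in all remaining lists were 0 to 1, the 1 being without replicate 1. The thresholded list was deposited as made from all replicates, so its counts could not be recomputed without one. No paired analysis was possible because there was 1 group. Depth is unknown, so weak summits cannot be separated from background.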
